A study of Mus musculus with 2 samples.

Results

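Stromal cells of the uninjured cornea and limbus that carried little or no transcript of Kera (keratocan, the keratan sulfate proteoglycan that marks corneal keratocytes) are described here, against stromal cells of the same library that carried it. They were chosen by their measured levels of Kera, of the stromal genes Dcn and Lum and of the epithelial keratins Krt5 and Krt14. They numbered 135 of the 450 cells that passed a stromal gate, 30.0% (95% Clopper-Pearson interval 25.8 to 34.5), 2.0% of the 6740 uninjured cells kept and 135 of 16889 barcodes in the whole study. A kept cell had at least 1000 UMIs (unique molecular identifiers, counts of captured RNA molecules) with at most 20% of them from mitochondrial genes. A gated cell had under 3000 CPM (UMIs per 1000000 UMIs) of the basal epithelial keratins Krt5 and Krt14 together and at least 10000 CPM of Dcn, Lum and Kera together. Those with under 1000 CPM of Kera are called Kera-low and the other 315 Kera-high.

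The study took single-cell transcriptomes of cornea and limbus from 1 uninjured wild-type mouse, the control, and 1 wild-type mouse injured with sodium hydroxide (NaOH), and asks about signalling after an alkali burn. The sources used here do not state strain, age or time after injury. Iris and trabecular tissue had been taken off, and most but not all of the conjunctiva. With 1 library per condition, differences between cells or conditions could not be tested against replicates. All intervals are 95% intervals that cover counting error only, and they treat UMIs or cells as independent molecules or draws from 1 mouse.

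Keratocytes are the resident, neural crest derived cells of the corneal stroma, which keep collagen fibrils thin and evenly spaced with small leucine-rich proteoglycans such as lumican, decorin and keratocan. Keratocan is largely specific to the cornea, while the fibroblasts of the limbus and sclera surround vessels and make a coarser matrix. The limbal stroma is also known as the niche of the epithelial stem cells, which it supplies with matrix and secreted factors.

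The name limbal fibroblast was checked against 5 markers. Dcn (decorin) had a UMI in all 135 Kera-low cells, Lum (lumican) in 130, Omd (osteomodulin) in 91, Coch (cochlin) in 47 and Tnn (tenascin-N, also called tenascin-W) in 34. Dcn and Lum belong to the gate, so fibroblast identity in these cells rests on the rule itself. Coch and Tnn marked a minority of the cells, and position in the eye was not measured, so limbal origin cannot be read from these data; the cells are therefore called by their rule. Markers of other cell types differed in level by list. The mural list summed to 25.4 CPM with Myh11, Notch3 and Des at 0, the vascular endothelial list to 23.8 CPM with Cdh5, Flt1 and Emcn at 0, and the Schwann list to 3.39 CPM with Sox10, Cdh19 and Gfra3 at 0. Lists of other stromal and neighbouring cells stood higher. The 6 scleral or tendon markers summed to 2555 CPM, with at least 2 of them in 102 of 135 Kera-low cells (1633 CPM and 272 of 315 Kera-high cells). Fmod, Tnmd and Chad were seen in a larger share of Kera-low than of Kera-high cells. Scx, Mkx and Thbs4 were seen in a smaller share, at unequal depth. The trabecular meshwork list summed to 682 CPM, with 2 markers in 20 cells and Cyp1b1 and Rspo4 at 0 (432 CPM and 9 cells in Kera-high), the adventitial list to 519 CPM in Kera-low and 577 CPM in Kera-high cells, and the corneal endothelial list to 197 and 188 CPM. Their part in the differences between Kera-low and Kera-high cells was not tested. The 6 immune markers summed to 100.1 CPM, and 1 cell held 13 UMIs of C1qc, 31 of Ccl4 and 24 of Pf4, all the UMIs of these genes among the 135 cells. Another cell held 310 of the 326 UMIs of Psca and 66 of the 67 of Prss27, genes of surface epithelium, beside 193 UMIs of Dcn.

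Epithelial transcripts reached nearly every cell. Krt12, the keratin of corneal epithelium, had a UMI in all 135 Kera-low and in 314 Kera-high cells, and the 6 epithelial markers summed to 2324 CPM in Kera-low, 1611 CPM in Kera-high and 32096 CPM in epithelial cells. A gene that is abundant in epithelium can therefore appear in stromal cells at a low level. Kera-low cells were also shallower, with a median of 4262 UMIs and 1712 genes per cell against 6469 UMIs and 2187 genes. Thinned to 1000 UMIs per cell the medians were 597 and 588 genes, so the gap in genes per cell was not present at equal depth. Kera-low cells summed to 589458 UMIs and Kera-high cells to 2005923. The libraries shared 15 cell barcodes, of which 0 belonged to Kera-low cells.

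Kera itself chose the cells, and its values are a description. No UMI of Kera was seen in 114 of the 135 cells, 6 cells had 1 UMI and 15 had more, up to 6. The 3 members nearest to the threshold stood at 986, 938 and 904 CPM, and the 3 nearest cells above it at 1006, 1082 and 1083 CPM. Only 13 members lay between 500 and 1000 CPM and 18 Kera-high cells between 1000 and 2000 CPM, whereas the median Kera-high cell held 29 UMIs and 4429 CPM. The gate genes Dcn (50336 against 45639 CPM) and Lum (5924 against 6976 CPM) were close in both groups, and the summed gate genes had medians of 57846 and 56938 CPM.

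**Figure D1:**
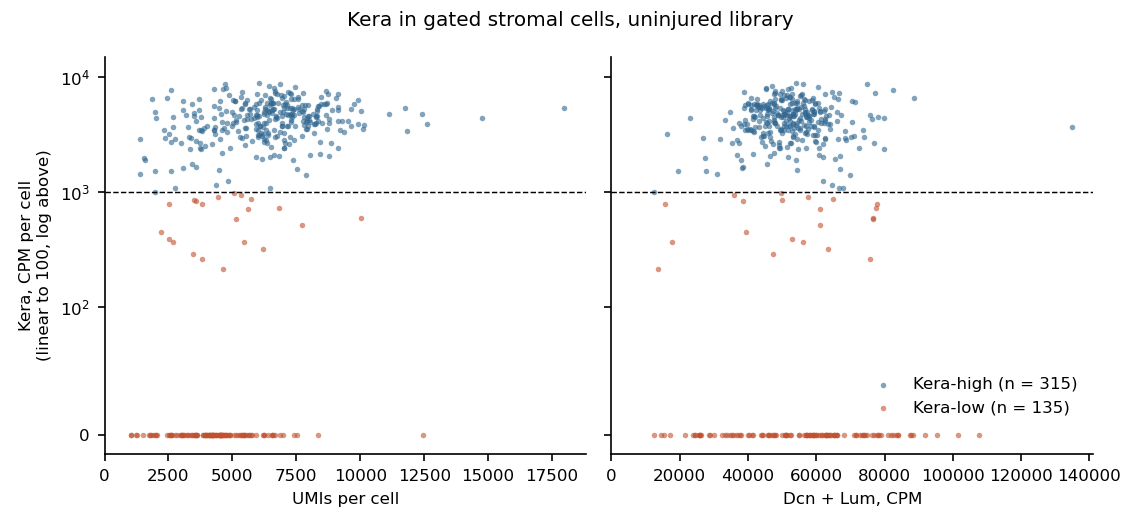
Kera in each of the 450 gated cells of the uninjured library (CPM, linear up to 100 and logarithmic above) against UMIs per cell on the left and Dcn plus Lum on the right. The dashed line is the 1000 CPM threshold, and few cells lie near it. Of the 135 Kera-low cells 114 sit at 0. Kera-low cells were shallower, with a median of 4262 against 6469 UMIs, and the deepest cell, at 17981 UMIs, is Kera-high.

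Over the 8499 genes with at least 20 UMIs in both groups of cells together, 544 (6.40%) were at least 2-fold higher in Kera-low cells with an interval of the ratio above 1, and 425 (5.00%) were at least 2-fold lower. Those shares are the background for the counts in gene lists below. The median log2 ratio over all genes was 0.00. These ratios describe a split made with the same cells and support nothing about it. Levels are compared between groups of cells for the same gene, not between genes.

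Most of the 15 genes with the largest ratios towards Kera-low cells encode secreted or matrix proteins. Mmp3 (stromelysin-1, a matrix metalloproteinase; chromosome 9, 7445822 to 7455975, GRCm38) had the most UMIs of them and stood at 3309.8 CPM (3165 to 3460) in Kera-low and 44.9 CPM in Kera-high cells, a 73.8-fold difference (59.7 to 92.2). A UMI of Mmp3 was found in 97 of 135 Kera-low cells, 71.9% (63.5 to 79.2), and in 25 of 315 Kera-high cells, 7.94%; epithelial cells, which served as the background for free RNA, showed 2.61%. The median Kera-low cell stood at 2265 CPM and the highest at 21087, while the median Kera-high cell was at 0 and the highest at 3917, so the groups overlapped at 0 and in a few high cells. After thinning to 1000 UMIs the shares were 59.3%, 3.81% and 0.503%.

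Penk (preproenkephalin, the precursor of opioid peptides) had 214 UMIs in 60 Kera-low cells and 3 UMIs in 3 Kera-high cells, 363 against 1.5 CPM, a ratio of 243 with an interval of 82.0 to 1186. Stc1 (stanniocalcin-1, a secreted glycoprotein of calcium and phosphate handling) had 262 UMIs in 71 cells against 6 UMIs, 444 and 2.99 CPM (67.4 to 409-fold). Ccn5, a matricellular protein of the CCN family, had 134 UMIs against 2, with an interval of the ratio of 61.9 to 1902. These genes were seen in 44.4%, 52.6% and 37.8% of Kera-low cells, so none of them marked all members. Cyp26b1, which breaks down retinoic acid, stood at 190.0 CPM in 49 cells and 7.98 CPM in Kera-high cells. Gas6, a ligand of the TAM receptor kinases, stood at 182 and 10.5 CPM, and Clu (clusterin, a secreted chaperone) at 341 and 18.9 CPM; epithelial cells carried Clu at 190.0 CPM and Gas6 at 74.3 CPM. Serpina3n, a serine protease inhibitor, stood at 238 against 4.99 CPM, and Nkd2, an inhibitor of Wnt signalling, at 107 against 1.99 CPM. Myoc (myocilin, known from the trabecular meshwork and sclera) stood at 243 against 2.99 CPM, but 3 cells held 62.9% of its UMIs.

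Genes lower in Kera-low cells included some that most Kera-high cells carried. A2m (alpha-2-macroglobulin, a broad protease inhibitor) stood at 1581 CPM in Kera-low and 9725 CPM in Kera-high cells, 6.15-fold lower, and had a UMI in 62.2% and 97.8% of the cells. Gpha2, a glycoprotein hormone subunit better known from limbal epithelial stem cells, stood at 229 against 1135 CPM, with 171 CPM in epithelial cells. It had a UMI in 28 of 135 Kera-low cells, and 3 of them held 38.5% of its UMIs in that group. The part of free RNA in its level was not tested. Plod1, a lysyl hydroxylase of collagen crosslinking, stood at 81.4 against 473 CPM. Chsy3, a chondroitin sulfate synthase, stood at 28.8 against 297 CPM. Cd40, a receptor of the TNF receptor family, had 4 UMIs in Kera-low cells and 226 in Kera-high cells, 6.79 against 113 CPM. Psat1 and Ass1, enzymes of serine and arginine synthesis, stood at 11.9 against 175 CPM and 23.7 against 241 CPM. Kdr, a VEGF receptor, stood at 20.4 against 124 CPM; Mamdc2, Bcl2l13, F3, Art4, Fjx1 and Ndufa4l2 also had ratios among the 15 largest in this direction and stood between 10.2 and 25.4 CPM in Kera-low cells.

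**Figure D2:**
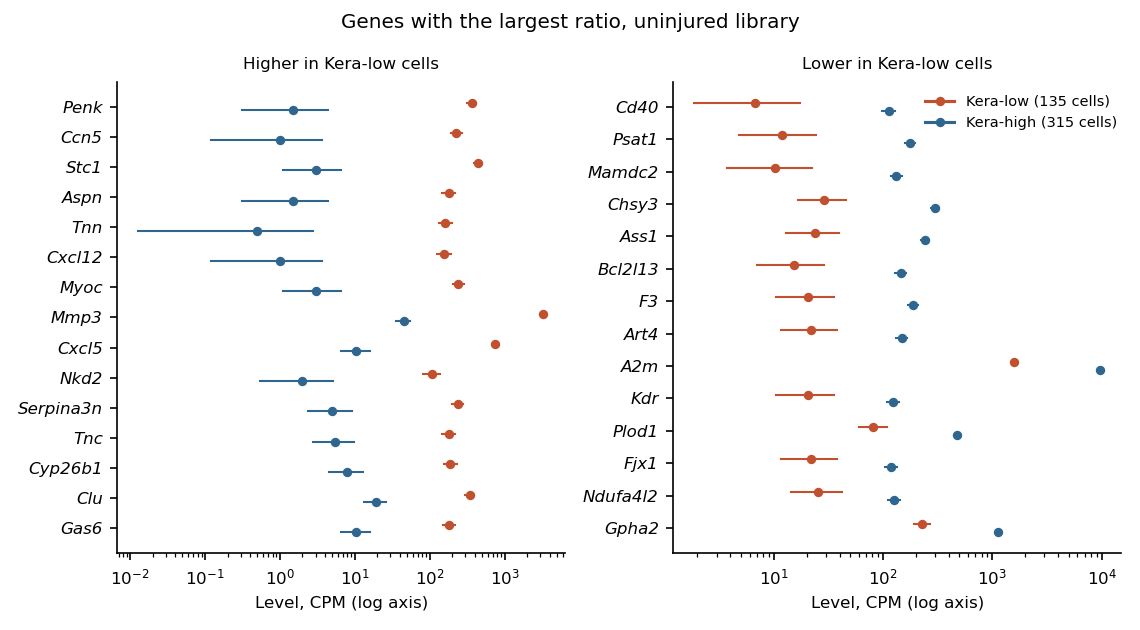
Levels (CPM, log axis) of genes with the largest ratio in each direction (15 higher, 14 lower), in Kera-low and Kera-high cells of the uninjured library; points are summed-UMI levels and lines exact Poisson 95% intervals. On the left Mmp3 lies furthest right, at 3309.8 CPM, and Tnn, Ccn5, Cxcl12, Penk and Aspn rest on 1 to 3 UMIs in Kera-high cells; on the right A2m lies furthest right, at 1581 CPM in Kera-low cells.

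The small leucine-rich proteoglycans, which bind collagen fibrils and set their diameter, differed member by member. Of 13 measured, 6 were at least 2-fold higher in Kera-low cells and 1, Kera itself, lower, with a median log2 ratio of 0.95 that includes the rule's genes Kera, Dcn and Lum. Without these 3, 6 of 10 were higher and 0 lower, with a median of 2.40, beside 0.00 for all genes. Aspn (asporin, a class I member without glycosaminoglycan chains) stood at 180 CPM in Kera-low and 1.5 CPM in Kera-high cells, with 106 against 3 UMIs and an interval of the ratio of 40.0 to 592. Omd, a keratan sulfate member known from bone, stood at 388 against 39.4 CPM (7.61 to 12.9), and Ecm2, a related matrix protein, at 102 against 11 CPM (5.61 to 15.9). Fmod (fibromodulin, which guides collagen crosslinking) stood at 1337 against 447 CPM, in 88.9% and 67.6% of cells. Chad (chondroadherin, of cartilage and tendon) had 43 UMIs in 10 cells against 13 UMIs, and Podn (podocan) 25 UMIs against 6. Ogn (osteoglycin, also called mimecan) and Prelp stood at 1055 against 547 CPM and 545 against 338 CPM, under 2-fold. Bgn (biglycan) stood at 1849 against 2446 CPM.

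Ecm2, Aspn, Omd and Ogn are neighbours on 1 strand of chromosome 13 (GRCm38), within 120 kb from 49504810 to 49624501, so that 4 genes with ratios towards Kera-low cells share a neighbourhood. Kera lies on chromosome 10 (97606879 to 97613692) beside Lum and Dcn, whose levels were close in both groups. Only Cenpp overlaps the chromosome 13 genes, on the opposite strand, and it had 0 UMIs in Kera-low and 1 UMI in Kera-high cells. The 250 bases before the RefSeq start (GRCm38.p6) of these 4 genes are shown because they are neighbours that ranged from 1.93-fold (Ogn) to over 40-fold, and those of Mmp3 because it had the most UMIs of the genes with the largest ratios. Capitals mark matches, on either strand, to the TATA box searched as TATAAA, to the CAAT box searched as CCAAT, and to the AP-1 site searched as TGANTCA.

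Ecm2, chr13:49504560-49504809, plus strand: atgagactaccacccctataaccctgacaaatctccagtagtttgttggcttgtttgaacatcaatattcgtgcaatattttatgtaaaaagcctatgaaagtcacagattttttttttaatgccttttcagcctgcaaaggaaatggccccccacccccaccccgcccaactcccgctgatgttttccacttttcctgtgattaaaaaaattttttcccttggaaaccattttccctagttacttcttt
Aspn, chr13:49544193-49544442, plus strand: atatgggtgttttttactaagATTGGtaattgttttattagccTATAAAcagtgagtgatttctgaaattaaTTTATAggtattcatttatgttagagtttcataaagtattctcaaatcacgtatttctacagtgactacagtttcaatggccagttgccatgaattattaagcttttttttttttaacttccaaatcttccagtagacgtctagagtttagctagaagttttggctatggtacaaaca
Omd, chr13:49582212-49582461, plus strand: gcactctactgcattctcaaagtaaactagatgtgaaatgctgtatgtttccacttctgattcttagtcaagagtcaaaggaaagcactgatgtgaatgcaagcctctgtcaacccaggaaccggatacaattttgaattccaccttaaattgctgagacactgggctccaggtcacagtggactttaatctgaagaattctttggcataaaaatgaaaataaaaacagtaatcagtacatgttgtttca
Ogn, chr13:49607765-49608014, plus strand: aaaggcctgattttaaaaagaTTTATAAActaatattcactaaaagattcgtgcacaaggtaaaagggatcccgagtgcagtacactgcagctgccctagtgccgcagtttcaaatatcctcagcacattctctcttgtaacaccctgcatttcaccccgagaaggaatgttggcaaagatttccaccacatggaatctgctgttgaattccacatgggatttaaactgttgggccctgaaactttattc
Mmp3, chr9:7445572-7445821, plus strand: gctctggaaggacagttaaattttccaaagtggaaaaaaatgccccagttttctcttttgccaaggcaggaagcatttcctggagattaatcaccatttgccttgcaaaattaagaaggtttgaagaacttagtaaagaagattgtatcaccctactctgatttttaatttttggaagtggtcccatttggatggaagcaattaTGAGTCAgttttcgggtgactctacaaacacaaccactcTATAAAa

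The windows of Ecm2 and Omd held none of these motifs. The Aspn window held TATAAA on both strands and 1 CCAAT on the minus strand, with first bases 178 to 229 bases before the start, and the Ogn window held overlapping TATAAA matches on both strands, with first bases 229 and 227 bases before the start. The Mmp3 window held TATAAA 7 bases and TGANTCA 46 bases before the start. Over all 32851 RefSeq windows of this length 12.4% held TATAAA, while 33.8% held a match to CCAAT and 6.75% one to TGANTCA. A match is a description of letters and says nothing of which factor binds.

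Genes of keratocyte metabolism and keratan sulfate synthesis were lower or near equal. Of 8 measured, 0 were higher and 4 lower, with a median log2 ratio of -0.95. Chst5, the sulfotransferase that sulfates corneal keratan sulfate, stood at 67.9 against 294 CPM and was seen in 28 of 135 (20.7%) against 244 of 315 (77.5%) cells. B3gnt7, which extends the keratan sulfate chain, had 1 UMI in Kera-low and 132 UMIs in Kera-high cells, lower by a factor with an interval of 6.84 to 1544. Angptl7, a secreted protein of cornea and trabecular meshwork, stood at 1705 against 3732 CPM. Tkt (transketolase, a corneal crystallin) stood at 507 against 1803 CPM and Aldh3a1 (the corneal aldehyde dehydrogenase crystallin) at 2365 against 4041 CPM; both were higher in epithelial cells, at 4515 and 10350.3 CPM, and the part of free RNA in these levels was not tested.

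The main fibrillar collagens stood close together, and minor ones did not. Col1a1 and Col1a2, the chains of type I collagen, stood at 8148 and 8669 CPM in Kera-low against 10145 and 10879 CPM in Kera-high cells. Col3a1, the type III chain of vascularised and wound matrix, stood at 835 CPM (763 to 912) against 49.4 CPM, 16.9-fold higher (13.6 to 21.2), in 66 of 135 (48.9%) against 40 of 315 (12.7%) cells. Of its UMIs in Kera-low cells 36.6% lay in 3 cells. Col5a1 and Col5a2, which nucleate thin fibrils, were lower at 251 against 697 CPM and 575 against 1517 CPM. In all 5 of 20 measured fibrillar collagen and crosslinking genes were higher, among them Pcolce2 and Col14a1, and 3 lower, with a median log2 ratio of 0.20. Of 14 basement membrane and network collagens 4 were higher and 1, Col6a3 (660 against 1576 CPM), lower; Col8a1, Lamb1, Hspg2 and Col4a1 were the 4. Of 14 elastic fibre and microfibril genes 2 were higher: Fbln1 (fibulin-1) at 327 against 18.9 CPM and Mfap5 at 139 against 47.4 CPM. Mfap5 was seen in 17.8% of Kera-low and 14.3% of Kera-high cells, and 3 Kera-low cells held 40.2% of its UMIs in that group.

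Matricellular proteins, which sit in matrix and modulate cell contact, included many of the larger ratios. Of 20 measured, 10 were higher and 1, Sparcl1 (141 against 352 CPM), lower, with a median log2 ratio of 1.26. Tnc (tenascin-C) stood at 180 against 5.48 CPM and had a UMI in 57 against 6 cells. Tnn had 96 UMIs in 34 cells against 1 UMI in Kera-high cells, 163 and 0.499 CPM, with an interval of the ratio of 57.3 to 13036. Postn (periostin) stood at 178 against 12.5 CPM, and Ccn2 (connective tissue growth factor) at 126 against 23.9 CPM. Coch, whose protein is known from the inner ear and trabecular meshwork, stood at 293 CPM (251 to 341) against 24.4 CPM, 12-fold higher (8.70 to 16.9), in 34.8% against 7.30% of cells. Its median cell was at 0 in both groups and its highest Kera-low cell at 7037 CPM. Sparc, Smoc2 and Matn4 were close in both groups, with Sparc at 14966 and 16044 CPM.

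Proteases and their inhibitors also leaned towards Kera-low cells: 8 of 16 measured were higher and 1, Adamtsl1, lower, with a median log2 ratio of 1.06. Beside Mmp3, the higher genes were Timp1, Timp3, Htra3, Adamts5, Mmp14, Ctsk and Adamts1. Timp3, the matrix-bound inhibitor of metalloproteinases, stood at 796 against 143 CPM, and the collagenase cathepsin K, Ctsk, at 577 against 256 CPM. Mmp2 (gelatinase A) and Timp2 were under 2-fold, at 1118 against 800 CPM and 1564 against 1363 CPM.

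Chemokines and cytokines had the highest list median, a log2 ratio of 2.70, with 7 of 10 measured higher and 0 lower. Cxcl5, a neutrophil attractant, stood at 746 CPM (678 to 820) against 10.5 CPM, 71.3-fold higher (46.1 to 116), in 73 of 135 against 8 of 315 cells. Cxcl1, of the same receptor group, stood at 684 against 92.7 CPM, with 87.5 CPM in epithelial cells. Cxcl12, the homeostatic ligand of Cxcr4, had 92 UMIs in 38 cells against 2 UMIs in 2 cells (42.1 to 1312-fold). Cxcl14, another homeostatic chemokine, stood at 553 against 46.4 CPM (9.45 to 15.2) and was seen in 68.9% against 18.4% of cells, with 15.0% of epithelial cells. Ccl19, Cxcl10 and Csf1 were the other 3 higher genes, at 45.8 to 76.3 CPM. Ccl2, the monocyte attractant, stood at 67.9 against 99.2 CPM. The immediate early and dissociation list was measured beside this one: 1 of 20 genes, Atf3 (467 against 225 CPM), was at least 2-fold higher, its median log2 ratio was 0.24, and Fos and Jun stood at 5670 against 5008 CPM and 1713 against 1467 CPM. Over all genes measured 6.40% were higher, so 1 of 20 is not read as a result about this list. The part of the immediate early genes in the chemokine levels was not tested.

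Secreted regulators of growth factor signalling differed in both directions. Of 14 Wnt pathway genes 4 were higher and 5 lower: the antagonists Wif1, Sfrp2 and Dkk3 and the inhibitor Nkd2 were higher, and Dkk2 (439 against 1166 CPM), the ligand Wnt11 (95.0 against 258 CPM), Notum, Lef1 and Tcf7 were lower. Lef1 and Tcf7, the transcription factors of the pathway, had 0 and 1 UMIs in Kera-low against 24 and 23 UMIs in Kera-high cells. The target Axin2 stood at 61.1 against 53.3 CPM. Of 15 BMP and TGF-beta genes 6 were higher and 2 lower; Tgfb2 (131 against 59.8 CPM), Tgfb3, the antagonist Fst and the target Id2 (504 against 187 CPM) were among the higher and Bmp3 (102 against 258 CPM) and the antagonist Chrd the lower. Of 10 insulin-like growth factor genes 4 were higher and 0 lower, among them Igf1 (30 against 10 UMIs) and the binding proteins Igfbp6 (604 against 35.4 CPM) and Igfbp7 (1439 against 303 CPM), while Igfbp2, another binding protein, stood at 8360.2 against 14282 CPM.

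Retinoid genes differed in both directions. Cyp26b1, which degrades retinoic acid, Aldh1a2, which makes it, and its target Rarres2 were higher. Aldh1a2 had 24 UMIs in Kera-low and 0 in Kera-high cells. Its ratio was 27.2 with the Kera-high sum set to the floor of 3 UMIs, which is not the lower limit of an interval. The binding proteins Crabp1 (115 against 327 CPM) and Crabp2 (40.7 against 130 CPM) were lower, and Aldh1a1, another enzyme that makes retinoic acid, stood at 127 against 196 CPM, under 2-fold. In all 3 of 9 measured were higher and 2 lower, with a median log2 ratio of -0.02. Among 20 transcription factors of neural crest, eye and limb 3 were higher and 3 lower: Ebf1 (38 against 6 UMIs), Meox1 and Nr2f2 against Shox2, Tbx2 and Sox11. Foxc1 (76.3 against 56.8 CPM), a regulator of anterior segment development, and Twist1 (565 against 883 CPM) were under 2-fold.

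Among other lists, 6 of 10 lipid genes were higher and 2 lower, the latter including Apoe at 477 against 2151 CPM. Of 15 adventitial and universal fibroblast genes 5 were higher, led by Ly6a (Sca-1, 336 against 4.99 CPM), and 2 lower, Sema3c (117 against 551 CPM) and Dpt (444 against 1073 CPM); Pdgfra and Cd34 stood at 132 against 143 CPM and 112 against 107 CPM. Of 16 nerve guidance genes 1 was higher and 2 lower, with Ntrk2, the BDNF receptor, at 619 against 1583 CPM. Of 11 niche growth factors 3 were higher, Fgf7 and Fgf2 among them, and 1, Dlk1, lower; Fgf7, the keratinocyte growth factor, had 10 UMIs in each group, 17.0 against 4.99 CPM. Of 13 angiogenesis regulators 3 were higher and 3 lower, of 6 complement genes 1 and 2, of 8 contractile genes 2 and 0 and of 4 hyaluronan and proteoglycan genes 3 and 0. None of 12 glycolysis genes and none of the 3 cell cycle genes measured was 2-fold different, with median log2 ratios of -0.25 and 0.43. Over all genes measured 6.40% were higher and 5.00% lower, so a count of 1 in these lists is not read as a result.

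**Figure D3:**
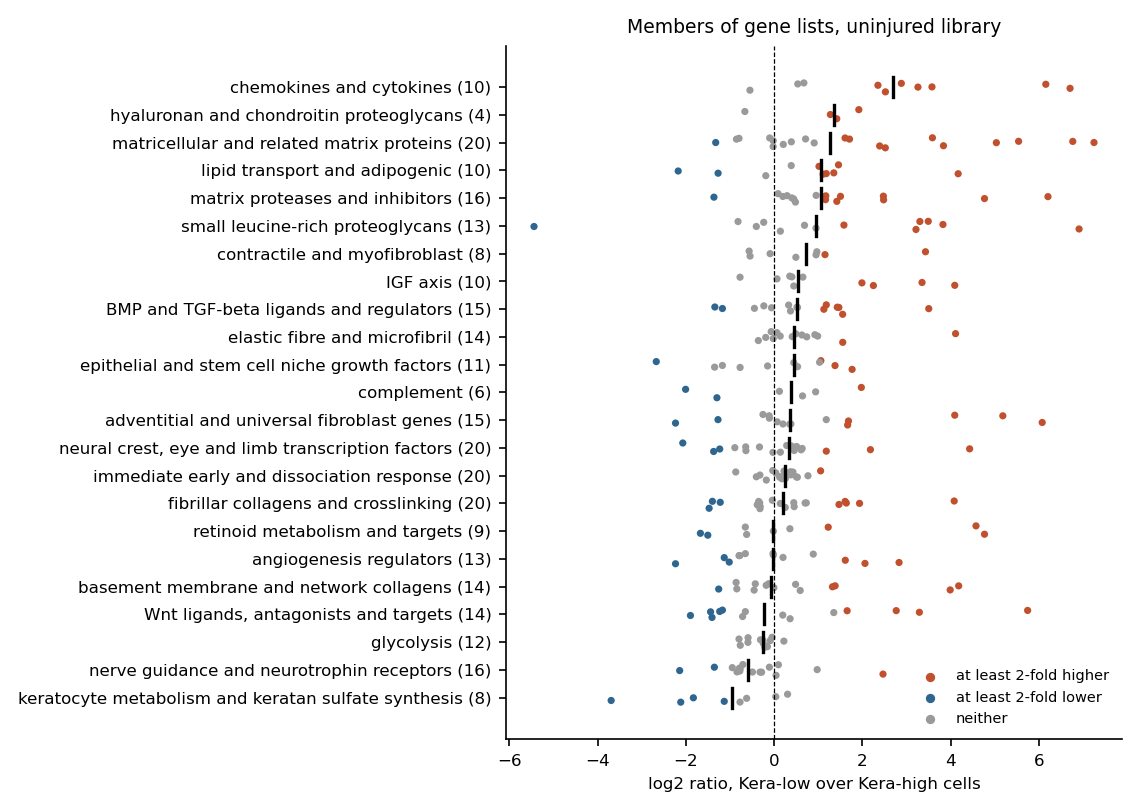
log2 ratios of Kera-low over Kera-high cells, uninjured library, for the measured members of each list with at least 4 (number measured in brackets); black bars are list medians, the dashed line the median of all genes at 0.00. Chemokines sit furthest right, at a median of 2.70, and keratocyte metabolism furthest left, at -0.95, while the immediate early genes centre at 0.24 and the glycolysis genes at -0.25.

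The Kera-low cells were not alike among themselves. Leiden clustering of the 135 cells without the gate genes gave 4 sub-clusters of 66, 34, 19 and 16 cells; at other resolutions there were 3 or 9. Their leading genes come from the same cells that were clustered and are a description. The largest, of 66 cells, held 856 of the 932 UMIs of A2m (2710 CPM), 910 of 1005 of Angptl7 and 38 of 40 of Chst5. It also held 315926 of the 589458 UMIs of all Kera-low cells, and 15 of the 21 Kera-low cells with a UMI of Kera. It was led by Pantr1, A2m, Angptl7, Atg10 and Gpha2. Omd and Coch were seen in 46 and 28 of its cells, and Mmp3 in 42.

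The sub-cluster of 34 cells was led by Tppp3, Col3a1, Mfap5, Mmp14 and Aspn. It held 363 of the 492 UMIs of Col3a1 (2582 CPM in 27 cells), and Ly6a stood at 733 CPM in 25 cells. The sub-cluster of 19 cells was led in fold by Prss27, Psca, Ifit1bl1, Pglyrp1 and Cysrt1, but Psca was in 3 and Prss27 in 2 of its cells, most of it in the 1 cell named above. Mmp3 was widespread there, at 7268 CPM in 18 of 19 cells, as were Cxcl5 (2217 CPM, 15 cells), Cyp26b1 (466 CPM, 12 cells) and Cxcl12 (441 CPM, 11 cells). Without this sub-cluster, an alternative chosen after seeing the data, Angptl7 stood just under 2-fold, at a log2 ratio of -0.93, as did Atf3, at 0.91, Fgf2, at 0.88, and Tgfb2, at 0.999.

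The sub-cluster of 16 cells was led by Chad, Spp1, Comp, Gpx3 and Emb, and Scx, the tendon transcription factor, was in 11 of its cells. With Chad and Scx among its top 10 genes it is called the Chad/Scx sub-cluster here. Both genes are on the scleral or tendon list, but Mkx and Thbs4 of that list are not described for it. Position was not measured, so no cell type is named. This sub-cluster held all 43 UMIs of Chad, in 10 cells. Fmod (4629 CPM), Igfbp6 (3789 CPM) and Sfrp2 (3322 CPM) had UMIs in all 16 cells, Tnmd (tenomodulin) stood at 1232 CPM in 13 and Myoc at 1605 CPM in 9. Its median of 2888 UMIs was the lowest of the 4. Without these cells, an alternative chosen after seeing the data, the log2 ratio of Chad over all other Kera-low against Kera-high cells went from 3.49 to -0.21, Spp1 from 5.54 to 1.90, Gpx3 from 5.18 to 1.90, Sfrp2 from 3.29 to 1.35, Igfbp6 from 4.09 to 3.01, Myoc from 6.34 to 5.15, Col8a1 from 4.18 to 3.32, Chil1 from 2.06 to 1.37 and Fgf2 from 1.06 to 0.93. Stc1 and Ly6a had 0 UMIs in these 16 cells.

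**Figure D4:**
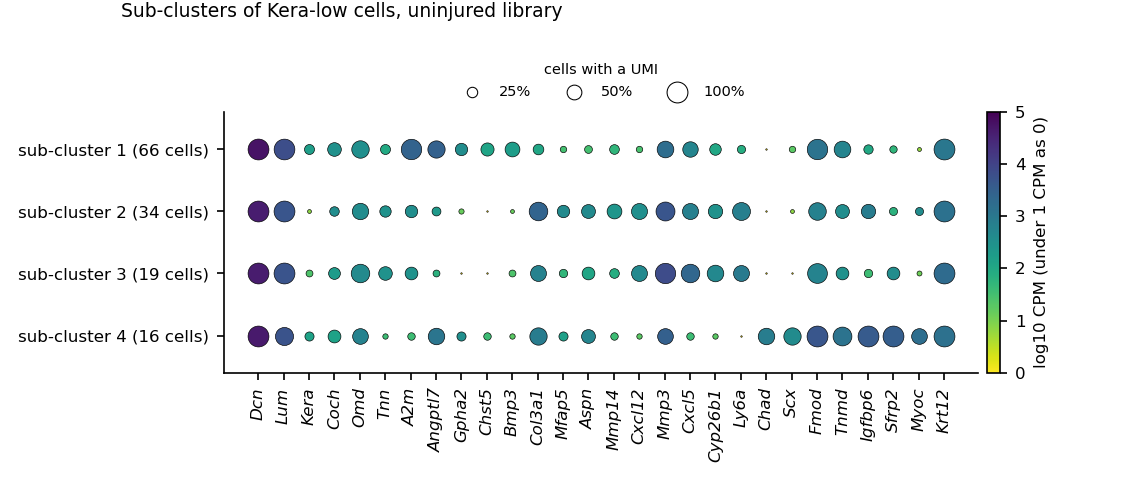
Level (colour, log10 CPM) and share of cells with a UMI (dot area) of 28 genes in the 4 sub-clusters of Kera-low cells. A2m, Angptl7 and Chst5 are concentrated in the 66-cell sub-cluster, Col3a1 and Mfap5 in the 34-cell one, Mmp3 and Cxcl5 are highest in the 19-cell one, and Chad, Scx, Igfbp6 and Sfrp2 in the 16-cell one; Krt12, an epithelial gene, is seen in all of them.

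In the injured library the same rule took 696 of 715 gated stromal cells, 97.3% (95.9 to 98.4), and left 19 Kera-high cells. The rule there no longer set a subset apart, so a comparison of Kera-low cells between libraries sets 30.0% of the uninjured stroma beside nearly all of the injured stroma, and which uninjured cells the injured ones came from was not measured. Injured Kera-low cells were also deeper, with a median of 11676.5 UMIs against 4262. Of 11279 genes measured, 573 (5.08%) were at least 2-fold higher and 844 (7.48%) at least 2-fold lower in injured Kera-low cells, with a median log2 ratio of -0.12; scaling by the median of ratios moved that median to -0.01.

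Genes already high in uninjured Kera-low cells stood higher in some cases and lower in others. Mmp3 stood at 20644 CPM in injured and 3309.8 CPM in uninjured Kera-low cells, 6.24-fold higher (5.96 to 6.53), Cxcl5 at 2084 and 746 CPM, Cxcl14 at 2101 and 553 CPM and Col3a1 at 4528 and 835 CPM. Coch stood at 5.29 CPM in injured and 293 CPM in uninjured Kera-low cells, 55.5-fold lower (39.6 to 79.1), Omd at 115 and 388 CPM, Tnn at 29.7 and 163 CPM, and Penk and Stc1 at 137 and 363 CPM and 95.7 and 444 CPM. Dcn stood at 18544 and 50336 CPM and Lum at 4831 and 5924 CPM. Coch, Omd and Tnn, the markers outside the rule, were thus at least 2-fold lower in injured Kera-low cells, as were 7.48% of all genes measured. Dcn was also at least 2-fold lower and Lum was not, but the rule chose cells by these genes in both libraries. Kera stood at 123 and 105 CPM, and Angptl7, 13-fold lower, at 131 and 1705 CPM.

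The 10 genes with the largest ratios towards injured Kera-low cells had few UMIs in the uninjured ones, from 0 to 24. Saa3 (serum amyloid A3) had 2 UMIs in uninjured Kera-low cells and stood at 1314 CPM in injured ones, with an interval of the ratio of 107 to 3199. Lcn2 (lipocalin-2) stood at 549 against 11.9 CPM, Timp1 at 1759 against 40.7 CPM (29.0 to 67.5-fold), Ccl7 at 563 against 25.4 CPM and Ptx3 (pentraxin-3) at 200 against 8.48 CPM. Csf3 (granulocyte colony-stimulating factor) had 0 UMIs in uninjured Kera-low cells and 123 CPM in injured ones. Its ratio was 24.1 with the uninjured sum set to the floor of 3 UMIs, which is not the lower limit of an interval. Of the 11 UMIs of Cxcl2 in uninjured Kera-low cells 10 lay in the cell with C1qc. Slpi, Pappa and Pi15 had 1 or 2 UMIs in uninjured Kera-low cells and stood at 399, 159 and 136 CPM in injured ones, with intervals of the ratio from 32.5, 12.9 and 14.3 upwards. Beside Coch, Angptl7, Igfbp6 and Myoc, the genes with the largest ratios in the other direction included Gsta3, Txnip, the clock gene Dbp (72.6 against 551 CPM), Ecm2 and Pcolce2. Without the 16 cells of the Chad/Scx sub-cluster the log2 ratio between libraries went from -3.50 to -2.42 for Igfbp6 and from -3.08 to -1.89 for Myoc. Over all genes measured 5.08% were higher and 7.48% lower between libraries. By list, 11 of 16 chemokine genes were higher and 0 lower, with a median log2 ratio of 1.54. Of 14 small leucine-rich proteoglycans 0 were higher and 8 lower, with a median of -1.22. Without the rule's genes, 0 of 11 of these proteoglycans were higher and 7 lower, with a median of -1.23.

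Within the injured library, the split by Kera could be made only against 19 cells with 188219 UMIs. Of 11114 genes measured 137 (1.23%) were at least 2-fold higher and 332 (2.99%) lower in Kera-low cells, with a median log2 ratio of -0.44. With median-of-ratios scaling the median was -0.13 and the counts were 355 and 150, so the balance of directions there depends on scaling. Counts under 3 UMIs in the 19 cells were set to 3, which lowers the ratios of weakly detected genes and with them these medians. How far this floor moved the medians was not tested. Of the 15 genes named as higher in uninjured Kera-low cells, 13 had a ratio in the same direction and 7 were at least 2-fold higher: Penk, Ccn5, Cxcl12, Mmp3, Cxcl5, Cyp26b1 and Gas6. Myoc was at least 2-fold in the opposite direction. Of the 15 named as lower, 14 were measured, 11 had the same direction and 2, Art4 and Plod1, were at least 2-fold lower. With a median of -0.44, most of all genes measured also lay below 0. The 11 of 14 is therefore not read as agreement between the libraries. Mmp3 stood at 20644 CPM in Kera-low and 7289 CPM in Kera-high injured cells, so both injured groups lay above the uninjured Kera-low cells.

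**Figure D5:**
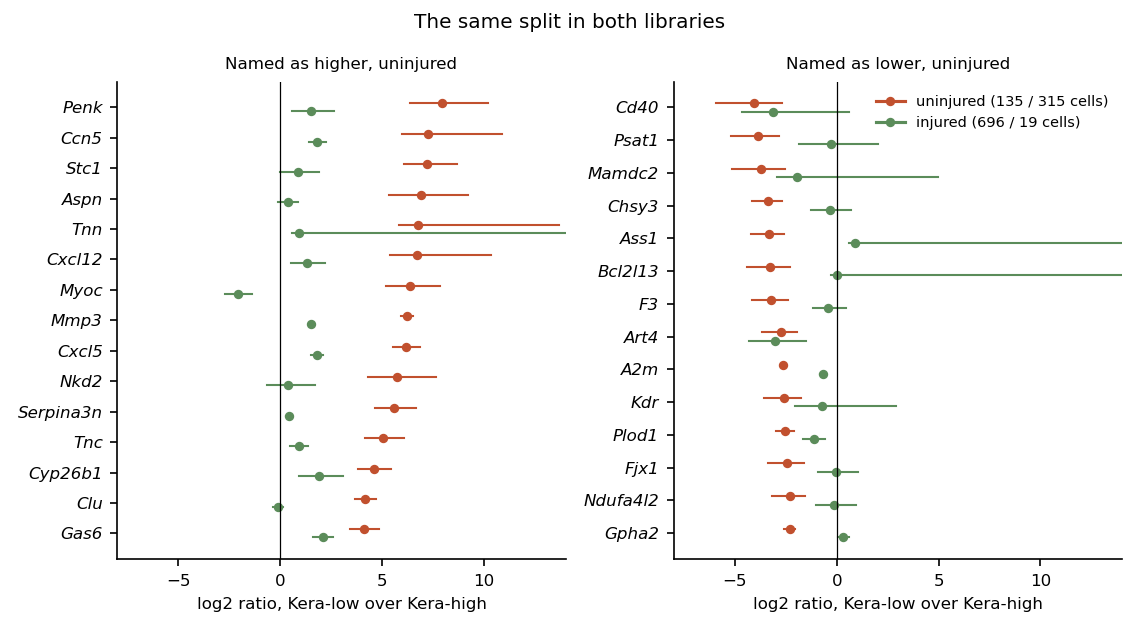
log2 ratios of Kera-low over Kera-high cells for 15 genes named as higher and 14 as lower, in the uninjured (135 and 315 cells) and injured library (696 and 19 cells); lines are conditional exact 95% intervals, clipped at the axis limits, and points use a floor of 3 UMIs. Among the 15 genes on the left 13 points of the injured library lie above 0, at smaller ratios than in the uninjured library, and Myoc lies below 0.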

How the data were processed

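Each library was deposited as whole UMI counts for 32285 genes. Per the file headers the authors used Cell Ranger 7.0.1, and the submitters' processing notes name GRCm38; no source used here gives the chemistry or annotation release. Labels' protocols describe release of cells with liberase, then trypsin. The uninjured library had 7490 barcodes and 85457541 UMIs, the injured 9399 and 108863350; 6740 and 8146 cells were kept.

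UMIs were summed over the cells of a group and divided by their total (CPM). Levels carry exact Poisson, ratios conditional exact binomial and shares Clopper-Pearson 95% intervals (scipy 1.17.1). Counts under 3 were set to 3 for log2 ratios. Calls required a 2-fold ratio whose interval excluded 1 and at least 20 UMIs. They were tried on simulated Poisson counts, the model that the intervals assume. That simulation did not cover UMIs concentrated in few cells. The members, the 24 gene lists and the rules were chosen with earlier results of these data known. Named genes are the markers, in each direction the 15 of largest ratio (10 between libraries) with at least 100 CPM and at least 25% of the level in epithelial and remaining cells, up to 4 per list from 50 CPM and 5 per sub-cluster from 200 CPM; Xist, Tsix, the Y-linked Kdm5d, Ddx3y, Uty and Eif2s3y, and mitochondrial, ribosomal, hemoglobin and predicted genes were left out, while other X-linked genes such as Timp1 were kept. List members outside this rule are named after their values were seen. Sub-clusters used scanpy 1.11.5 (1000 variable genes, 15 components, 15 neighbours, Leiden resolution 0.8). Doublets were not removed: Scrublet's automatic threshold marked 34 and 2 barcodes (0.454% and 0.0213%) and was taken as failed. Coordinates are from GENCODE M21 and promoter windows from RefSeq. Promoter entries were matched for all 5 genes shown. A few genes chosen by these rules are not reported here.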

Additional observations from a re-analysis of the deposited data

Results flagged for a closer look

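The 6 genes below were at least 2-fold higher in Kera-low than in Kera-high cells of the uninjured library. In the injured library they were at least 2-fold lower in Kera-low cells. The difference between libraries was not tested. They are named or listed genes, and no count of such reversals over all genes is given. Over all genes measured, 6.40% were at least 2-fold higher in the uninjured split and 2.99% at least 2-fold lower in the injured one. The log2 ratio of Chad was 3.49 in the uninjured and -4.30 in the injured library. That of Igfbp6 was 4.09 and -3.11, that of Sfrp2 3.29 and -2.66 and that of Myoc 6.34 and -2.09. Tnmd had 1.61 and -2.36, and Timp3 2.48 and -1.56. In the uninjured library all UMIs of Chad and most of those of Sfrp2, Igfbp6 and Myoc among Kera-low cells lay in the Chad/Scx sub-cluster of 16 cells. The injured Kera-high group holds 19 cells. There the 6 scleral or tendon markers summed to 4102 CPM against 1301 CPM in injured Kera-low cells. Chad and Tnmd are among these markers, so the sum partly repeats their ratios. The part of the make-up of this group in the ratios was not tested.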

How the results depend on the processing

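No paired analysis was possible because each condition had 1 library, and no replicate could be left out. The number of Kera-low cells ranged from 110 to 153 over the alternatives. Thinned to 1000 UMIs per cell, where fewer genes reach 20 UMIs, 198 and 152 genes were higher and lower in uninjured Kera-low cells, 254 and 289 between libraries and 25 and 87 in the injured split. With genes of at least 1 UMI 919 were higher in the uninjured split; with at least 100 UMIs 146 were higher and 168 lower there, 430 lower between libraries and 208 lower in the injured split. In the injured split a Kera threshold of 500 CPM gave 214 higher and 158 lower, one of 2000 CPM 59 higher, leaving out cells between them 60 higher, and median-of-ratios scaling 355 and 150; beyond the number of cells and the shift in scale, the cause was not tested. Resolution 1.5 gave 9 sub-clusters. The log2 ratio of Chad reversed, to -0.21, without the Chad/Scx sub-cluster. Of the values of named genes under alternatives, 2601 stayed near their main value, 262 moved and 1 reversed. Of list medians 940 stayed within 0.25 and 196 moved. These totals pool unlike settings. Thinning to 1000 UMIs per cell moved 90 gene values and left 89 the same, and moved 47 list medians and left 24. A limit of 10% mitochondrial UMIs left 179 gene values the same and moved none. Removing the highest Scrublet scores (449 and 707 barcodes) took 2 Kera-low and 1 Kera-high cell. Genes with few UMIs in 1 group have wide intervals, and variation between mice is not covered by any of them.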
